A study of Mus musculus with 5 samples.

Results

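The genes described here are 51 genes of the Wnt pathway, out of 20807 autosomal protein-coding genes of the GENCODE M21 annotation (mm10). They were chosen by name, with earlier results of these data known. The set holds every autosomal coding gene called Wnt, Fzd, Dkk, Sfrp or Rspo with a number, together with Lrp5, Lrp6, Ctnnb1, Axin1, Axin2, Apc, Tcf7, Tcf7l1, Tcf7l2 and Lef1. Each gene was taken as its body plus 10 kb on each side, called its window, and a gene had a region in a sample when an enriched region of macroH2A1.2-GFP overlapped its window by at least 1 bp. By role, the 51 genes comprised 19 Wnt ligands, 12 receptors, 8 secreted inhibitors, 4 R-spondins, 4 genes of beta-catenin and its destruction complex and 4 nuclear factors. Neighbouring members did not give separate measurements in 3 cases, because the windows of Wnt1 and Wnt10b, of Wnt6 and Wnt10a and of Wnt3a and Wnt9a overlapped and shared regions. Windows of 25 members also touched another coding gene.

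MacroH2A1.2 is a splice form of macroH2A1, a histone variant that replaces H2A in part of the nucleosomes, and is often found in broad domains of silent chromatin. Wnt proteins are secreted ligands that bind Frizzled receptors and the co-receptors Lrp5 and Lrp6 at the cell surface. In the canonical branch this stops the destruction complex, built on Axin and Apc, from degrading beta-catenin, which then enters the nucleus and acts on target genes with Tcf and Lef factors. In the adipose lineage, Wnt signalling holds pre-adipocytes in their undifferentiated state, and Wnt10b is the ligand best known for this.

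3T3-L1 is an established line of mouse fibroblasts, which turn into adipocytes after treatment with hormones. Its chromatin was immunoprecipitated in 2 samples of pre-adipocytes and 2 samples of mature adipocytes. All 4 came from cells stably transduced with a lentivirus that expresses macroH2A1.2 fused to GFP, so an added and tagged protein was measured with an anti-GFP antibody (ab290), not the cells' own histone. Differentiation was induced 2 days after confluence with insulin (10 µg/ml), the glucocorticoid dexamethasone (0.25 µM) and the phosphodiesterase inhibitor IBMX (500 µM), given for 60 h, and medium without IBMX and dexamethasone followed, for a time the sample labels do not give. A library made without antibody was the control of all 4 samples.

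The state of each sample was taken from its title, whereas the description fields of both mature samples, and that of the control, name cells before differentiation. The titles and descriptions cannot both be right, and every difference between states given here rests on the titles. The passage of the methods on chromatin immunoprecipitation names adipose tissue of mice, whereas the labels name 3T3-L1 cells. Enriched regions give no RNA level, so the markers of pre-adipocytes and adipocytes could not be checked here. The paper reports less lipid, after differentiation, in cells that expressed the tagged histone than in cells that expressed GFP alone. Mature therefore names cells taken after induction, and how fully these samples had differentiated was not tested. The 4 samples had 36468 to 61196 regions, with 2833105 to 11592708 ChIP reads in them. Relative to the control, the library was 0.549 in size in pre-adipocyte replicate 2 and between 1.2 and 1.23 in the other samples. The shallow sample is 1 of the 2 pre-adipocyte samples, so values are given below with and without it.

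The share of Wnt genes with a region was above that of coding genes in general in each of the 4 samples. A region was found at 36 and 29 of the 51 members in pre-adipocyte replicates 1 and 2, or 70.6% and 56.9%, against 35.0% and 30.3% of all coding genes. In mature adipocyte replicates 1 and 2 it was found at 38 and 42 members, or 74.5% and 82.4%, against 41.4% and 41.6% of all coding genes. For members and for all genes alike, both mature samples lay above both pre-adipocyte samples. Regions covered 21.3% and 9.94% of the members' windows in pre-adipocyte replicates 1 and 2 and 20.7% and 21.7% in mature replicates 1 and 2. The windows of all coding genes were covered to 8.48%, 3.94%, 8.83% and 8.54% in the same order. The share at Wnt genes was thus 2.51, 2.52, 2.34 and 2.55 times that at all genes, a ratio that the shallow sample shared.

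**Figure D1:**
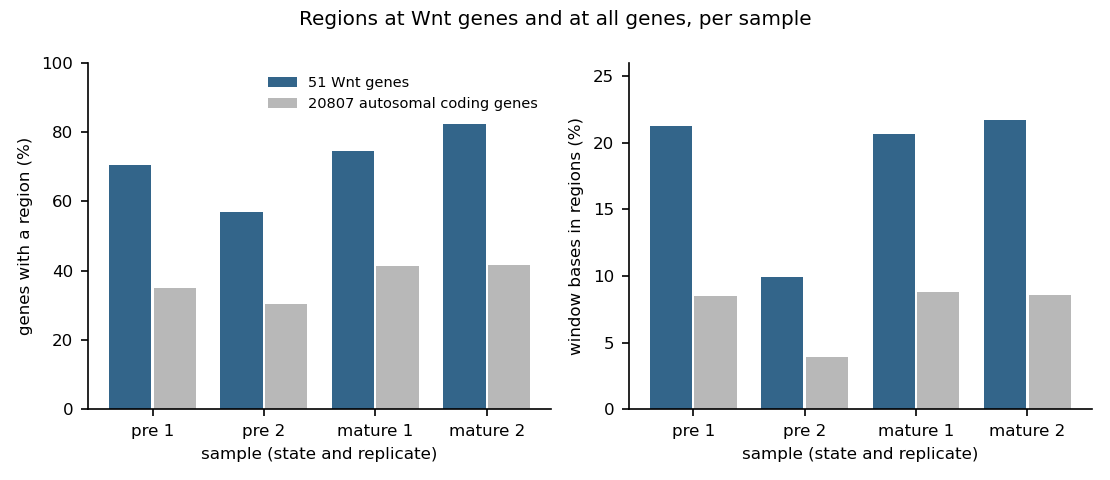
Left, the share of genes with a region (%), and right, the share of window bases in regions (%), in each of the 4 samples (x axis), for the 51 Wnt genes (blue bars) and all 20807 autosomal coding genes (grey bars). The blue bar is the taller in every sample, and pre-adipocyte replicate 2 has the lowest bars in both panels.

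Pre-adipocytes had 32.5 ± 4.95 members with a region and mature adipocytes 40 ± 2.83 (SD, n = 2 each), a difference of 7.5 genes (two-sided exact permutation test, p = 0.33, the smallest p that 2 samples against 2 allow). The difference was 4 genes without the shallow pre-adipocyte replicate 2, 3 with equal numbers of regions per sample and 2 within gene bodies alone. Mean coverage of the windows was 15.6% ± 8.05 for pre-adipocytes and 21.2% ± 0.725 for mature adipocytes (SD, n = 2 each; exact permutation test, p = 0.667). The difference of 5.58 percentage points became -0.113 when pre-adipocyte replicate 2 was left out, so its sign rested on that shallow sample. Fold enrichment, in which ChIP reads are divided by control reads and scaled for library size, was, over the regions of the members, 1.58, 1.92, 1.78 and 1.78 in pre-adipocyte replicates 1 and 2 and mature replicates 1 and 2. Over the regions of all genes it was 1.59, 1.95, 1.74 and 1.76, so the members lay slightly below all genes in both pre-adipocyte samples and slightly above them in both mature samples. The fold enrichment at members differed between states by 0.0328 (exact permutation test, p = 1 with n = 2 per state). After Benjamini-Hochberg adjustment over the 4 comparisons of this kind, the fourth being the count of covered starts below, each adjusted p was 1 (exact permutation tests).

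A region in all 4 samples was found at 25 members, or 49.0%, against 21.1% of all coding genes. They were the ligands Wnt1, Wnt2, Wnt3a, Wnt5b, Wnt7a, Wnt7b, Wnt8b, Wnt9a, Wnt10a, Wnt10b and Wnt16, the receptors Fzd1, Fzd2, Fzd6, Fzd7 and Lrp5, the inhibitors Dkk2, Sfrp1, Sfrp2 and Sfrp5, the agonists Rspo2 and Rspo3, and the nuclear factors Tcf7, Tcf7l1 and Tcf7l2. Both pre-adipocyte samples had a region at 26 members (24.2% of all genes) and both mature samples at 38 members (34.4% of all genes). At least 1 sample had a region at 44 members, compared with 53.7% of all genes. The other 7 members, Axin1, Axin2, Fzd10, Lef1, Wnt2b, Wnt4 and Wnt11, had no region in any sample at the limit of the deposited files, a false discovery rate of 0.001.

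A region in both mature samples and in neither pre-adipocyte sample was found at 3 members, Dkk1, Fzd8 and Wnt6, or 5.88% of the members, against 4.86% of all genes. The reverse was found at 1 member, Dkk3, or 1.96%, against 0.913% of all genes. Both shares were close to those of all genes.

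**Figure D2:**
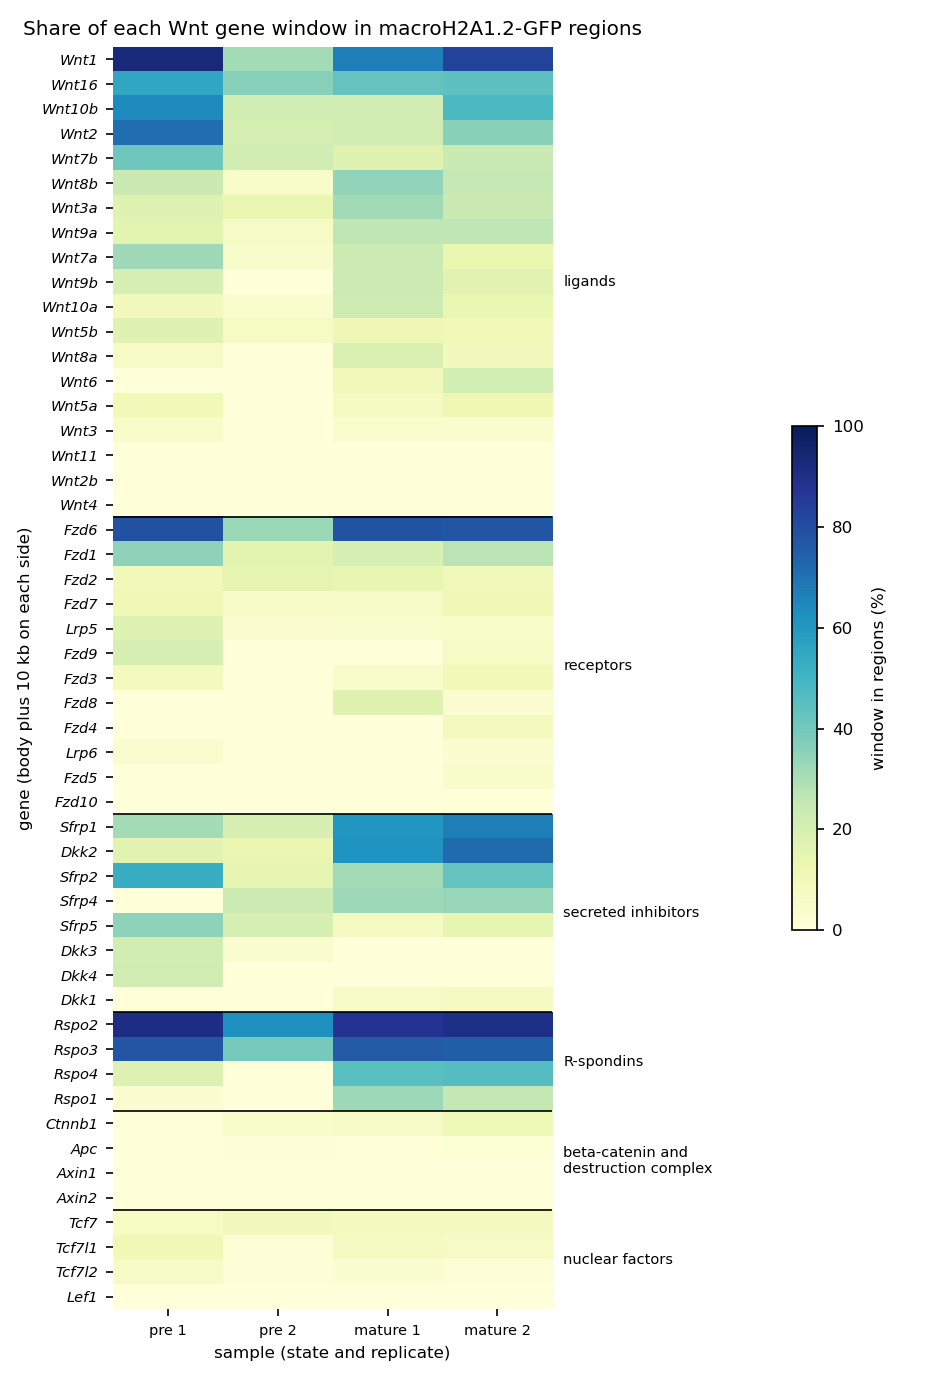
Share of each gene's window in enriched regions (%, colour), for the 51 Wnt genes (rows, grouped by role and ordered by mean) in the 4 samples (columns). Rspo2, Rspo3, Wnt1 and Fzd6 are dark in 3 of the 4 columns and paler in pre-adipocyte replicate 2, Dkk2 and Sfrp1 are darker in both mature columns, and the rows of Axin1, Axin2 and Lef1 are at 0 throughout.

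Among the ligands, the highest mean coverage over the 4 samples was at Wnt1 (ENSMUSG00000022997.9, chromosome 15 from 98789857 to 98793837, forward strand), a canonical ligand of brain development. Its window was covered to 93.3% and 31.0% in pre-adipocyte replicates 1 and 2 and to 66.9% and 82.7% in mature replicates 1 and 2. The mature values lay between the pre-adipocyte values, so the states overlapped. Next to it, and transcribed away from it, lies Wnt10b (ENSMUSG00000022996.15, chromosome 15 from 98770712 to 98778150, reverse strand), with 11.7 kb between the gene bodies. The Wnt10b window was covered to 64.0% and 21.1% in pre-adipocytes and to 21.7% and 47.9% in mature adipocytes, and here too the states overlapped. Regions that touched both windows were called in all 4 samples. That of mature replicate 2, for example, ran from 98781201 to 98790800 and held 410 ChIP and 202 control reads.

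Wnt2, a ligand known from lung and placenta, was covered to 70.8% in pre-adipocyte replicate 1, and to 20.5% in pre-adipocyte replicate 2 and 21.4% and 35.8% in the mature samples. Its high value stood in the deep pre-adipocyte sample alone. Wnt5b, a non-canonical ligand known to favour adipogenesis, had regions in all samples at low coverage, 17.1% and 6.68% in pre-adipocytes and 11.5% and 10.3% in mature adipocytes. Wnt7b was covered to 40.9% and 21.5% in pre-adipocytes and 17.1% and 24.2% in mature adipocytes. Its regions were among the most enriched of the members, with fold enrichments up to 3.76 and 4.17 in pre-adipocyte replicates 1 and 2 and up to 2.61 and 3.83 in mature replicates 1 and 2.

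For 6 ligands, both mature samples had a higher covered share than both pre-adipocyte samples. Wnt6 had no region in pre-adipocytes and was covered to 9.90% and 20.9% in mature adipocytes, and its neighbour Wnt10a was covered to 9.12% and 4.29% in pre-adipocytes and 22.7% and 13.5% in mature adipocytes. Wnt6 and Wnt10a lie 6.19 kb apart on chromosome 1 and are both known to restrain adipogenesis, with Wnt10b. Wnt3a was covered to 17.5% and 13.4% in pre-adipocytes and 31.5% and 23.5% in mature adipocytes. Wnt9a, 16.2 kb from it on chromosome 11, was covered to 15.9% and 6.01% in pre-adipocytes and 26.3% and 26.2% in mature adipocytes. The other two were Wnt8a, covered to 6.16% and 0% in pre-adipocytes and 18.5% and 9.24% in mature adipocytes, and Wnt8b. Wnt8b was covered to 23.5% and 5.39% before and 34.1% and 25.0% after differentiation, so that its deep pre-adipocyte sample lay close to the lower mature sample. With equal numbers of regions per sample, the order was lost at Wnt6, Wnt10a, Wnt8a and Wnt8b.

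The other ligands with regions had overlapping states. Wnt7a was covered to 31.7% and 4.48% in pre-adipocytes and 23.4% and 13.4% in mature adipocytes. Wnt9b, Wnt5a and Wnt3 had regions in every sample but the shallow one, at 16.1% to 23.1%, 7.73% to 11.8% and 3.76% to 5.41% of their windows. Wnt5a is a non-canonical ligand, and its highest fold enrichment, 3.55, was upstream of the gene in mature replicate 2.

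The start of a gene is its annotated 5′ end, and at few members did it lie in a region. Starts were covered at 5 and 3 members in pre-adipocyte replicates 1 and 2 and at 4 and 3 members in mature replicates 1 and 2. Among all genes, 6.14% and 2.30% of starts were covered in pre-adipocyte replicates 1 and 2, and 5.78% and 5.43% in mature replicates 1 and 2. The count at members was 4 ± 1.41 before and 3.5 ± 0.707 after differentiation (SD, n = 2 each; exact permutation test, p = 1). A covered start in at least 2 samples was found at 4 members, all of them ligands, Wnt1, Wnt8b, Wnt9b and Wnt16, or 7.84% of the members against 5.06% of all coding genes. The 250 bases before their starts are printed because they are the DNA that these regions did or did not reach, each on the gene's own strand from 5′ to 3′ (RefSeq, GRCm38.p6), with every CG in capitals.

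Wnt1, chr15:98789607-98789856, forward strand: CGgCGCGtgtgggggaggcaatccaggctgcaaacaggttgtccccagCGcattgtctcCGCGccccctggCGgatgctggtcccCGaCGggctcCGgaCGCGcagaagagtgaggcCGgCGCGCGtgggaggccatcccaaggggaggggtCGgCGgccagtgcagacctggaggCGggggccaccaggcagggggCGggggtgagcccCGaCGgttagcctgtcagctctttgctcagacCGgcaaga
Wnt8b, chr19:44493222-44493471, forward strand: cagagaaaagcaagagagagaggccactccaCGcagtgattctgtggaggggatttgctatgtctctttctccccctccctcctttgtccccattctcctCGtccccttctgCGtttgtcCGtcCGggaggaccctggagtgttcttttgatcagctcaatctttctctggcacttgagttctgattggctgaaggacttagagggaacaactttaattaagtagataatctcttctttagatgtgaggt
Wnt9b, chr11:103749822-103750071, reverse strand: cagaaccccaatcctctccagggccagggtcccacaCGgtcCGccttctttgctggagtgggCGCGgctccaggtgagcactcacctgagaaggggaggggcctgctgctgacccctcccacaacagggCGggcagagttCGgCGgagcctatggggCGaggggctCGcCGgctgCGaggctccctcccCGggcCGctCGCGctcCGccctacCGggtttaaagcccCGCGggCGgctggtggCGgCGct
Wnt16, chr6:22287977-22288226, forward strand: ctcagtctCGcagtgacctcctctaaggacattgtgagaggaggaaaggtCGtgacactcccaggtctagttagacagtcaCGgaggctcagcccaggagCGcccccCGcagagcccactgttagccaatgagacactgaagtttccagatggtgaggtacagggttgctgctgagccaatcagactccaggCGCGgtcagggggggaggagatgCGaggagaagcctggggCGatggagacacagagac

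These stretches held 23 CG in Wnt1, 5 in Wnt8b, 22 in Wnt9b and 9 in Wnt16, so covered starts were both rich and poor in CG. Over the 42 RefSeq promoters listed for 33 of the 51 members the median was 22, against 6 over all 32851 RefSeq promoters. Those promoters belong to 27025 genes, so they are not limited to the autosomal coding genes used as the background elsewhere. Regions covered all 250 bases of Wnt1 and of Wnt8b in pre-adipocyte replicate 1 and in both mature samples, and none in the shallow pre-adipocyte replicate 2. The stretch of Wnt9b was covered in replicate 1 of each state and in neither replicate 2. The region over the Wnt8b start held 202, 250 and 243 ChIP reads in pre-adipocyte replicate 1 and mature replicates 1 and 2, with 88, 89 and 88 control reads.

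Wnt16, a ligand best known from bone, was the member with a covered start in both pre-adipocyte samples and in neither mature sample. The gene (ENSMUSG00000029671.15, chromosome 6 from 22288227 to 22298522, forward strand) was called from 22283401 to 22298200 in pre-adipocyte replicate 1 (650 ChIP and 298 control reads). In pre-adipocyte replicate 2 it was called from 22283401 to 22293000 (217 ChIP and 194 control reads). In mature replicate 1 the same stretch was called as 2 regions, which ended at 22288000 and began again at 22288801, so the 250 bases printed above were covered for 24 bases. In mature replicate 2 the region began at 22288801 and the 250 bases were not covered. The uncalled gap at the start was thus under 1 kb in mature replicate 1, and coverage of the whole window, 55.4% and 36.2% in pre-adipocytes and 42.9% and 44.1% in mature adipocytes, overlapped between states.

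Tcf and Lef factors bind DNA at a core whose letters are CTTTGAT or CTTTGTT, and both were searched on both strands (ATCAAAG and AACAAAG on the other) in the RefSeq promoters, from 250 bases before to 50 after the start. CTTTGAT was present in 2 of the members' 42 promoters, of Wnt5b and Wnt11, or 4.76%, against 3.73% of all promoters. CTTTGTT was present in 4, of Dkk1, Fzd7, Tcf7l2 and Wnt3, or 9.52%, against 5.85% of all promoters. No promoter of a member held both.

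**Figure D3:**
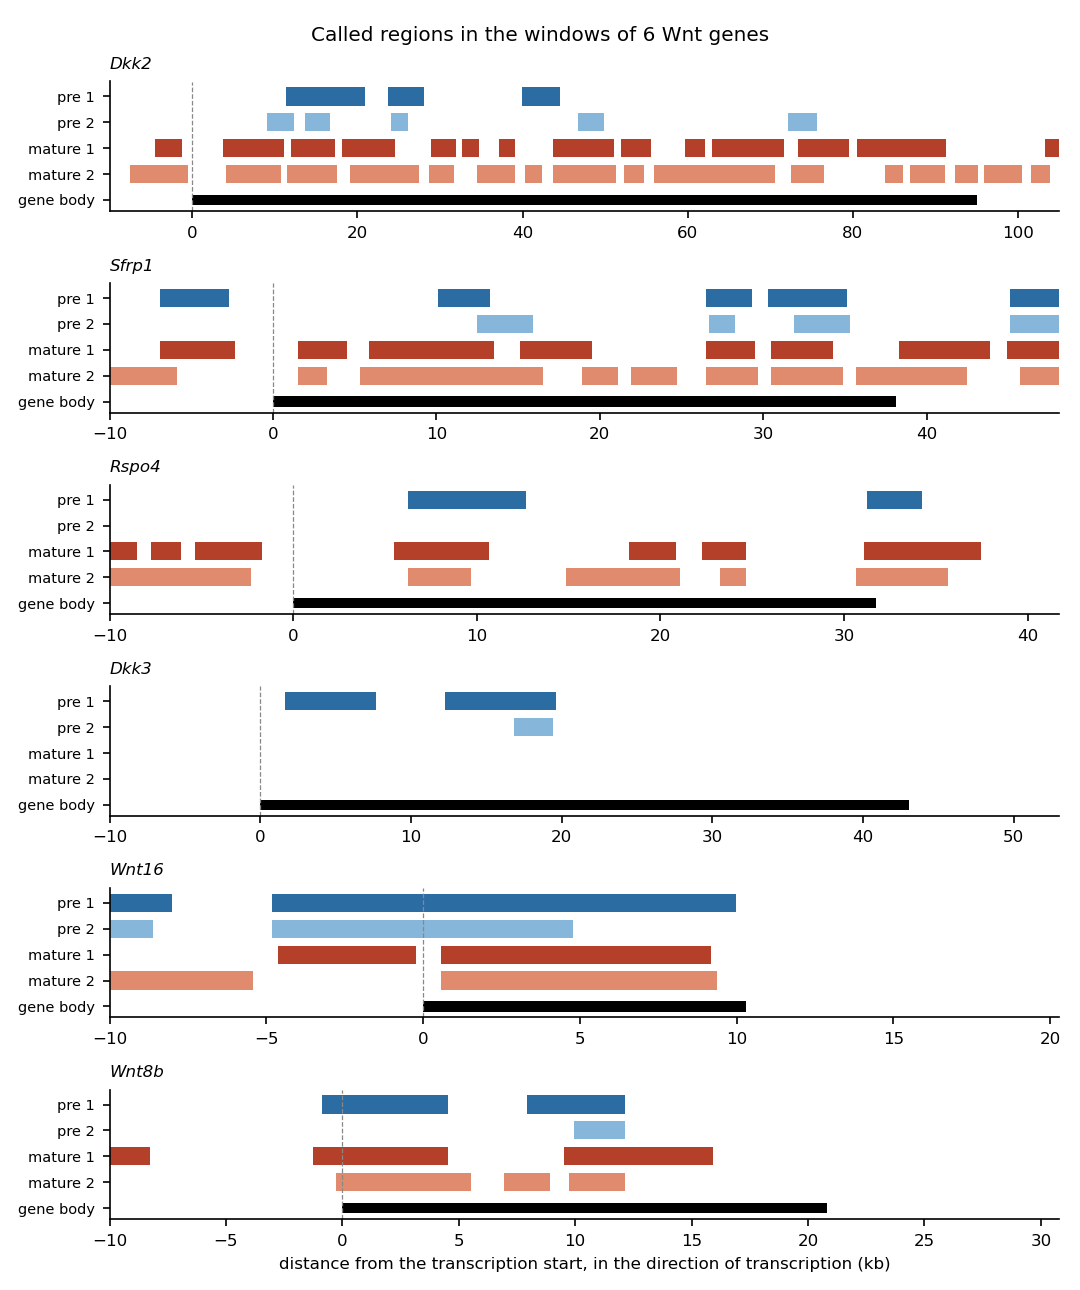
Called regions (coloured bars) in the windows of Dkk2, Sfrp1, Rspo4, Dkk3, Wnt16 and Wnt8b in the 4 samples, against the distance from the transcription start in kb (dashed line at 0), with the gene body as a black bar. Dkk2, Sfrp1 and Rspo4 have more bars in the red mature rows than in the blue pre-adipocyte rows, Dkk3 has bars in the blue rows alone, and at Wnt16 the start is covered in the blue rows and lies in a gap in the red ones.

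Among the genes whose states did not overlap, the largest differences in coverage were at the secreted inhibitors Dkk2 and Sfrp1. Dkk2 (ENSMUSG00000028031.6, chromosome 3 from 132085292 to 132180304, forward strand) encodes a Dickkopf protein, which binds the co-receptors Lrp5 and Lrp6. Its window was covered to 16.2% and 13.0% in pre-adipocyte replicates 1 and 2 and to 61.1% and 71.6% in mature replicates 1 and 2. The states were far apart at the limit of the deposited files, and the shallow sample was close to the deep pre-adipocyte sample. Counting only regions of at least 2-fold enrichment, the coverage of Dkk2 was 0% and 5.39% in pre-adipocytes and 4.87% and 18.8% in mature adipocytes, so the states then overlapped. The regions numbered 3 and 5 in pre-adipocytes and 14 and 16 in mature adipocytes, all in introns in pre-adipocytes. In mature adipocytes they also lay upstream of the gene, from 132080801 to 132084000 in replicate 1 (119 ChIP and 44 control reads) and from 132077801 to 132084800 in replicate 2 (244 ChIP and 98 control reads), but did not reach the start.

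Sfrp1 (ENSMUSG00000031548.7, chromosome 8 from 23411502 to 23449632, forward strand) encodes a decoy that binds Wnt proteins outside the cell. Its window was covered to 31.0% and 19.7% in pre-adipocytes and to 60.6% and 67.0% in mature adipocytes, and the states did not overlap. At 2-fold enrichment or more it was 5.50% and 0% in pre-adipocytes and 42.3% and 45.4% in mature adipocytes, still apart. Sfrp4, a related decoy, had no region in pre-adipocyte replicate 1 and 23.4% in pre-adipocyte replicate 2, with 32.4% and 33.5% in mature adipocytes. Dkk1 had regions in mature adipocytes alone, at 5.88% and 7.56% of its window, both upstream of the gene and with 72 ChIP reads each.

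The opposite order was seen at Dkk3 and Sfrp5. Dkk3 (ENSMUSG00000030772.6, chromosome 7 from 112116017 to 112159057, reverse strand), a divergent member of the Dickkopf family, was covered to 21.3% and 4.12% in pre-adipocytes and had no region in mature adipocytes. Its regions were intronic and held 217 and 176 ChIP reads in pre-adipocyte replicate 1 (111 and 87 control reads) and 59 in pre-adipocyte replicate 2 (46 control reads). Sfrp5 was covered to 34.8% and 20.0% in pre-adipocytes and 7.63% and 14.8% in mature adipocytes, by regions upstream of the gene. Sfrp2 was covered to 52.4%, 15.0%, 31.0% and 42.6% in pre-adipocyte replicates 1 and 2 and mature replicates 1 and 2, with the states overlapping. Dkk4 had a region in pre-adipocyte replicate 1 alone.

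R-spondins are secreted agonists that raise the number of Frizzled receptors at the surface, and had the highest mean coverage of the 6 role groups, 47.2% and 25.4% in pre-adipocytes and 60.3% and 59.0% in mature adipocytes. Rspo2 was covered to 90.8% and 62.5% in pre-adipocytes and to 87.9% and 90.0% in mature adipocytes. Rspo3 was covered to 77.2% and 39.3% in pre-adipocytes and to 76.0% and 74.8% in mature adipocytes. At both, the 3 deep samples were close and the shallow sample was low. Rspo4 (chromosome 2 from 151842927 to 151874668) was covered to 18.2% and 0% in pre-adipocytes and to 45.0% and 45.8% in mature adipocytes. Rspo1 (chromosome 4 from 124986430 to 125009099) was covered to 2.58% and 0% in pre-adipocytes and to 32.1% and 25.5% in mature adipocytes. Both states were apart at Rspo1 and Rspo4, also against the deep pre-adipocyte sample alone and with regions of at least 2-fold enrichment. At Rspo1, however, the regions of at least 2-fold enrichment lay at different places in the mature samples. They were in introns in mature replicate 1 and outside the gene in mature replicate 2, and shared no base.

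Frizzled receptors and their co-receptors had lower coverage, with a mean of 15.4% and 6.01% in pre-adipocytes and 12.0% and 13.8% in mature adipocytes. Fzd6 stood above the others, at 78.9% and 32.5% in pre-adipocytes and 77.8% and 77.0% in mature adipocytes. Fzd1 was covered to 34.9%, 15.8%, 20.0% and 27.1% in pre-adipocyte replicates 1 and 2 and mature replicates 1 and 2. Fzd2 had a single region upstream of the gene in each sample, and its coverage lay between 10.1% and 15.2%. The co-receptor Lrp5 was covered to 17.2% in pre-adipocyte replicate 1 and between 2.93% and 5.23% in the other samples. Fzd7 was covered to 11.3% and 5.61% in pre-adipocytes and 5.52% and 11.2% in mature adipocytes. Fzd8 had regions in mature adipocytes alone, at 17.1% and 2.83% of its window, outside the gene body and at different places in the 2 samples. Fzd3, Fzd9 and Lrp6 had regions in both states, at up to 19.7% of the window and never in the shallow sample, and Fzd4 and Fzd5 in mature replicate 2 alone. No receptor had a covered start in any sample.

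The genes that act inside the cell were the least covered. Ctnnb1, which encodes beta-catenin (ENSMUSG00000006932.17, chromosome 9 from 120929216 to 120960507, forward strand), was covered to 0% and 4.68% in pre-adipocytes and 5.85% and 10.9% in mature adipocytes. Its start was covered in pre-adipocyte replicate 2, by a region that ran from 120928601 to 120931000 and held 55 ChIP against 35 control reads. In mature adipocytes the regions lay upstream of the gene and left the start free, such as that of replicate 1, which ran from 120923801 to 120926800 and held 118 ChIP against 39 control reads. Apc had a region in 3 samples at up to 1.87% of its window, and the scaffold genes Axin1 and Axin2 had none. The nearest region to the Axin1 window was between 7088 and 15688 bp away in the 4 samples, and the nearest to that of Axin2 between 280818 and 370818 bp away.

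The nuclear factors Tcf7, Tcf7l1 and Tcf7l2 had a region in every sample at low coverage, at most 11.2%, while Lef1 had none. Tcf7 was covered to 6.71% and 9.08% in pre-adipocytes and 8.69% and 7.90% in mature adipocytes. Its region was intronic in 3 samples and upstream of the gene in mature replicate 2. Tcf7l1 was covered to 11.2% and 1.31% in pre-adipocytes and 7.58% and 6.12% in mature adipocytes. Tcf7l2 was covered to 6.15% and 0.875% in pre-adipocytes and 3.14% and 1.16% in mature adipocytes. The member region with the highest fold enrichment, 6.17, was intronic in Tcf7l1 in mature replicate 2 and held 67 ChIP and 9 control reads, and no region of another sample overlapped it.

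**Figure D4:**
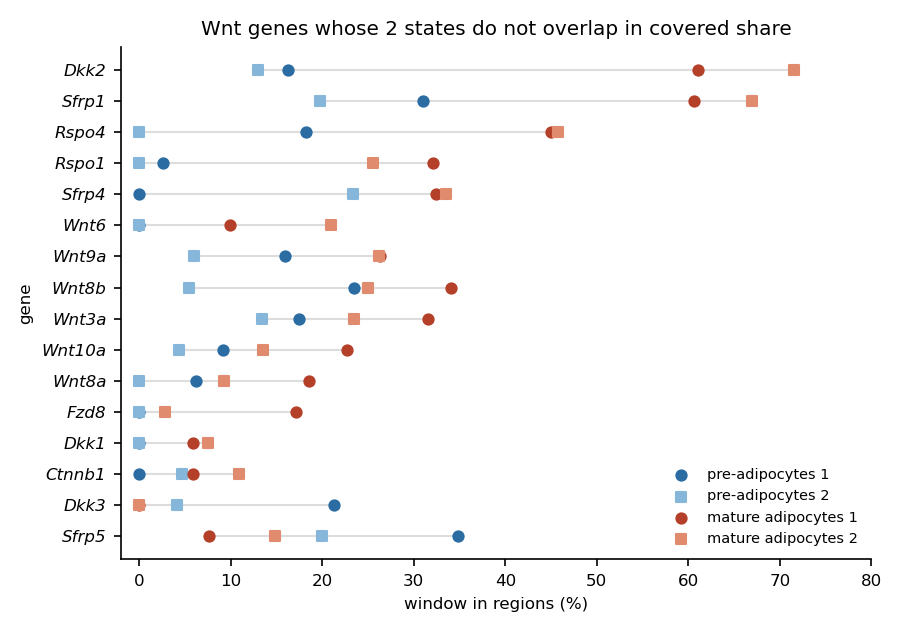
Share of the window in enriched regions (%, x axis) in each of the 4 samples (points) for the 16 Wnt genes (rows) whose samples of 1 state all lay above those of the other. At the top 14 genes the red mature points lie to the right of the blue pre-adipocyte points, most widely at Dkk2 and Sfrp1, and at Dkk3 and Sfrp5 to the left. Points at 0 lie on top of each other.

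Counted over the members, both mature samples had a higher covered share than both pre-adipocyte samples at 14 of 51 genes, or 27.5%, against 14.6% of all coding genes. Both pre-adipocyte samples had the higher share at 2 of 51, or 3.92%, against 3.51% of all coding genes. A gene without a region in any sample cannot be counted in either direction. At least 1 sample had a region at 86.3% of the members, against 53.7% of all coding genes. The shares here and below thus also reflect how many genes had any region. The count of 14 became 9 when each sample was cut to the same number of regions, 36468, and those 9 were Ctnnb1, Dkk1, Dkk2, Fzd8, Rspo1, Rspo4, Sfrp1, Wnt3a and Wnt9a, all among the 14. They made 17.6% of the members, against 6.45% of all coding genes. With regions of at least 2-fold enrichment, 7 of the 14 were kept, Ctnnb1, Dkk1, Rspo1, Rspo4, Sfrp1, Wnt3a and Wnt8b. Neither Dkk3 nor Sfrp5 then kept the opposite order. Set against the deep pre-adipocyte replicate 1 alone, the covered share was higher in both mature samples at 16 members and lower in both at 22, or 31.4% and 43.1%, where all coding genes gave 16.2% and 18.1%. Without the shallow sample, members covered less in mature adipocytes thus outnumbered those covered more. Dkk2, Sfrp1, Rspo1 and Rspo4 were among those covered more with and without it.

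The position of coverage within the windows was similar in the 3 deep samples. The mean covered share of the 10 kb upstream of the start was 29.4% in pre-adipocyte replicate 1 and 26.9% and 28.8% in the mature samples, against 8.98% in pre-adipocyte replicate 2. Gene bodies were covered to 17.9%, 8.19%, 17.2% and 17.2%, and the 10 kb downstream to 16.7%, 7.53%, 18.2% and 21.6%, in pre-adipocyte replicates 1 and 2 and mature replicates 1 and 2. Over all genes the upstream stretch was also the most covered, at 12.4%, 5.64%, 11.8% and 11.3%. Members had somewhat longer bodies than all genes, with a median of 22699 bp against 17629 bp, and fewer coding starts within 500 kb, with a median of 11 against 16. Across the 51 members, mean coverage had a Spearman correlation of -0.01 with the number of these starts and of -0.00 with window length, as a description of genes that share the same 4 libraries.

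Read density was then compared within regions. Regions of the 4 samples that overlapped were merged, and 152 merged regions touched the members' windows, of which 43 (28.3%) were called in all 4 samples, against 20.6% of the 61942 autosomal merged regions. ChIP reads per length of these 43 regions, at 24 genes, were compared between states by the quasi-likelihood test of edgeR, in a fit over all 12857 merged regions called in every sample. By this test, 0 member regions passed an adjusted p of 0.05 (edgeR), and 4 had an unadjusted p under 0.05, or 9.30%, against 9.15% of all tested regions. With DESeq2, no member region passed the threshold, and 2 had an unadjusted p under 0.05. However, DESeq2 gave no adjusted p to the regions that begin at 22283401 (Wnt16), 23441801 (Sfrp1) and 38992601 (Fzd6). These regions could therefore not pass, and DESeq2 does not decide about them. Over all tested regions, 0.0778% passed as higher in mature adipocytes and 0.00778% as higher in pre-adipocytes. The log2 fold change of mature over pre-adipocytes ran from -0.34 to 0.45 over the 43 regions with a median standard error of 0.12, and 24 were above 0 and 19 below.

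The smallest p was at the Wnt16 region from 22283401 to 22298200 described above. Its density, in reads per kb scaled to library size, was 36.5 and 41.2 in pre-adipocyte replicates 1 and 2 and 31.8 and 30.0 in mature replicates 1 and 2, so the states did not overlap. The log2 fold change was -0.33 ± 0.0938 (SE), with an adjusted p of 0.173 (edgeR). Without pre-adipocyte replicate 2 it was -0.38 with an adjusted p of 0.0386 (edgeR). That fit has a lone pre-adipocyte sample, which is assumed to vary like the mature samples, and 224 of all 12857 regions passed in it, against 11 with every sample. Leaving out each of the other samples instead, the adjusted p lay between 0.521 and 0.883 (edgeR). The next regions were from 23456401 to 23513800 by Sfrp1, with a log2 fold change of 0.18 ± 0.065 (SE), from 23441801 to 23446800 in Sfrp1, with 0.45 ± 0.167, and from 38992601 to 39006000 upstream of Fzd6, with -0.25 ± 0.0948. Their adjusted p were 0.349, 0.355 and 0.370 (edgeR).

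The test saw reads inside called intervals alone. At Dkk2, the tested region from 132125201 to 132136600 had a log2 fold change of 0.26 ± 0.138 (SE). The tested region from 132089001 to 132113400 had -0.06 ± 0.0904, so the signs differed. The called length of the former was 4600 and 3200 bp in pre-adipocytes and 7400 and 9600 bp in mature adipocytes. That of the latter was 14000 and 8200 bp in pre-adipocytes and 19200 and 21000 bp in mature adipocytes. The difference in coverage at Dkk2, Sfrp1, Rspo1 and Rspo4 thus lay largely in stretches that were called in some samples, whose reads in the other samples are not in the files used here.

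**Figure D5:**
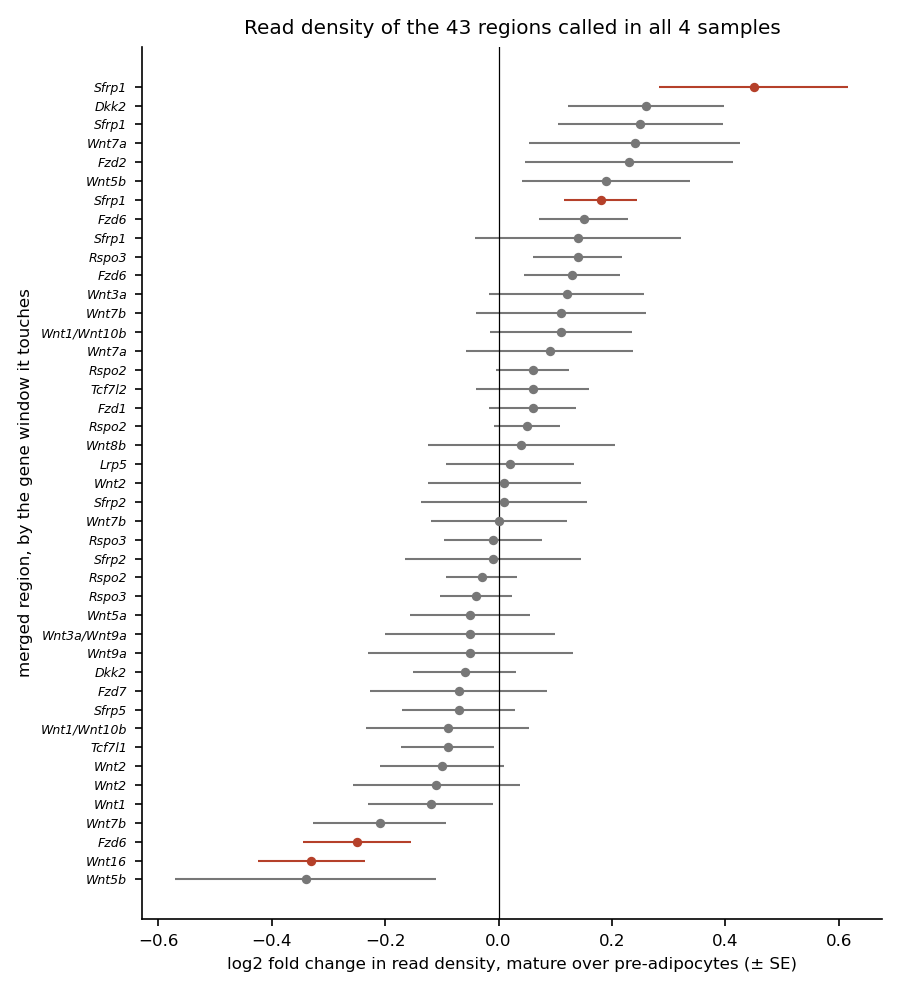
Log2 fold change in read density, mature over pre-adipocytes (x axis, point with its standard error), of the 43 merged regions at Wnt genes called in all 4 samples (rows, named by the gene window they touch). The points lie between -0.34 and 0.45 around 0, and the 4 red points had an unadjusted p under 0.05, none of which passed after adjustment.

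Other genes of the pathway, a list of 49 that holds none of the 51, had a region at fewer genes in each sample. It was found at 20 and 16 of them in pre-adipocyte replicates 1 and 2, or 40.8% and 32.7%, against 35.0% and 30.3% of all genes. In mature replicates 1 and 2 it was found at 28 and 27, or 57.1% and 55.1%, against 41.4% and 41.6% of all genes. All 4 samples had a region at 15, or 30.6%, between the 49.0% of the members and the 21.1% of all genes. These were the extracellular inhibitors Notum, Sost and Wif1, the membrane-bound inhibitor Apcdd1, the receptors and co-receptors Kremen2, Lgr6, Ptk7 and Ror2, the planar polarity genes Celsr1 and Prickle2, the intracellular regulators Csnk1e, Nkd1 and Tnks2, and the co-repressors Tle3 and Tle4. Both mature samples and neither pre-adipocyte sample had a region at 6 of the 49, Btrc, Cer1, Lgr4, Nkd2, Ror1 and Vangl2, or 12.2%, against 4.86% of all genes, and the reverse was found at none. The covered share was higher in both mature samples than in both pre-adipocyte samples at 11 of the 49, or 22.4%. Among all genes it was 14.6%, and among the 51 members 27.5%. The reverse order was found at 1 of the 49, or 2.04%, against 3.51% of all genes. At least 1 sample had a region at 71.4% of the 49, against 53.7% of all genes.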

How the data were processed

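The authors sequenced single reads, aligned them to mm10 with Bowtie 1.1.2 (at most 2 mismatches, unique positions), discarded duplicate reads with Picard and ran SICER 1.1 on each sample, versions being those of the submitters' processing notes. The methods give a false discovery rate of 1%, whereas the deposited regions stop at 0.001. Per region, the deposited values were raw counts of reads (ChIP and control), the p-value of their comparison with its false discovery rate, and the fold enrichment, a ratio of both counts that the authors scaled for library size. The control had no table of its own here, and total library sizes were taken relative to the control from the scaling in the fold enrichment.

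Everything else was computed from these tables. The 51 members and the 49 other genes were chosen with earlier results of these data known. Coverage, regions per window and covered starts were taken on GENCODE M21, and regions, in steps of 200 bp, are printed from base 1. States were compared by two-sided exact permutation tests with n = 2 per state. The methods call the samples of a state biological replicates, without saying how the cultures were kept apart, and p-values measure the spread between these samples. Density was tested with edgeR 4.0.16 on the ChIP counts of merged regions called in all 4 samples (12857 of 62927), with TMM normalization on counts per length, log length as an offset and p adjusted after Benjamini-Hochberg. DESeq2 1.42.0 was an alternative, and the script was tested on simulated counts. Samples with the same replicate number had deviations correlated at 0.00775. With 2 samples per state this gives no sign of pairing, but cannot show that the samples were unpaired. Named genes were those with a region in all 4 samples, in both replicates of a single state, or with a covered start in at least 2 samples, together with Wnt10b, Wnt5b, Ctnnb1 and the region with the smallest p, and others were named to account for every member after their values were seen. Python 3.11.15, pandas 2.3.3, scipy 1.17.1 and R 4.3.3 were used.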

Additional observations from a re-analysis of the deposited data

How the results depend on the processing

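The shallow pre-adipocyte replicate 2 limited most comparisons between states. Leaving out each sample in turn, the difference in covered share ran from -0.113 to 11.3 percentage points, that in fold enrichment from -0.141 to 0.206 and that in covered starts from -1.5 to 0.5 genes. The difference in fold enrichment was -0.00146 with regions at a false discovery rate of at most 1e-05 and -0.0412 with regions of at least 2-fold enrichment. The difference in covered starts was 0.5 with at least 2-fold enrichment, 3 with starts extended by 1 kb and 0.5 with the start of any coding transcript. With at least 2-fold enrichment, regions were found in both pre-adipocyte samples at 6 members, in both mature samples at 20, in all 4 at 6, in mature adipocytes alone at 5 and in pre-adipocytes alone at 0. Within gene bodies these counts were 14, 18 and 11, and 0 in mature adipocytes alone. At 1e-05, 5 members had regions in mature adipocytes alone. The shares of all coding genes under these settings are not given, so these counts cannot be read as particular to Wnt genes.

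The counts of members covered more in 1 state were set against alternatives chosen after seeing the data. The 14 members covered more in mature adipocytes became 9 with equal numbers of regions, 5 within gene bodies, 12 at 2-fold enrichment (7 of them among the 14) and 15 to 32 without each sample. The 2 members covered more in pre-adipocytes became 1 at 1e-05, 1 at 2-fold enrichment, 1 within gene bodies, and 2 to 22 without each sample. Of all coding genes, 6.45% were covered more in mature adipocytes with equal numbers of regions. Without pre-adipocyte replicate 2, 16.2% of all coding genes were covered more in mature adipocytes and 18.1% less. Shares of all genes are not given for the other alternatives, so those counts cannot be read as particular to Wnt genes. The cause of these shifts was not tested. In edgeR, 0 to 1 member regions passed without each sample, while 112, 224, 5 and 1 of all 12857 regions passed without pre-adipocyte replicates 1 and 2 and mature replicates 1 and 2. With the replicate block, 0 member regions and 27 of all regions passed, and 6 member regions had an unadjusted p under 0.05. Of the results that answer a comparison, 68 alternatives were counted as the same, 20 as moved and 8 as reversed. For differences between states, the same meant only that the sign did not reverse, and the size could change. The difference of 7.5 genes with a region, for example, was counted as the same at 2 genes within gene bodies.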
